A study of Mus musculus with 2 samples.

Results

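The Zbtb genes other than Zbtb16 were taken as every feature whose symbol opens with Zbtb and a number, and 41 of the 32285 features in both matrices met this rule. Of these, 39 encode proteins that join a BTB domain to zinc fingers. The other 2 share only the symbol: Zbtb8os encodes archease, a cofactor of the tRNA ligase complex, and Zbtb11os1 is an antisense RNA. Mouse D3 embryonic stem cells had been put through cardiomyocyte differentiation and collected on day 6 for droplet single-cell RNA sequencing. The groups were a Zbtb16 knockout of D3 and its wild-type control, with 1 library each, and the stated purpose was to find the subpopulation that Zbtb16 regulates at the cardiovascular progenitor stage. The part of Zbtb16 that was deleted, and whether the knockout is 1 clone, are not given in the sources used here. With 1 library per group no test between groups was possible, and all intervals cover counting error only.

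In this family the BTB domain pairs proteins with themselves or with one another and recruits corepressors, while the zinc fingers choose the DNA sites. Most studied members are repressors that set cell fate, many of them in blood and lymphocytes. Zbtb16, also called PLZF, acts in germline stem cells, limb patterning and innate-like lymphocytes, and paralogues of a deleted gene are often read for a rise that could compensate for it.

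Cells were barcodes with at least 15000 UMIs (unique molecular identifiers, one per captured RNA molecule) and at most 10% mitochondrial UMIs. The knockout library gave 9449 cells (median 30513 UMIs) and the control library 6354 (median 37324 UMIs). Levels are counts per 1000000 UMIs (CPM) of the summed cells, and 16 cell barcodes occurred in both libraries. Cells were placed in states by the summed level of marker genes, so that each state is a range of a score and not a cell type. The cardiomyocyte gate held 50 knockout and 1984 control cells, the endothelial gate 392 and 262, and the visceral endoderm gate 197 and 101. The mesenchymal gate held 3646 knockout and 813 control cells, and the proepicardial gate 139 and 160, while 4558 and 2520 cells entered no gate. Pluripotent (186 and 21 cells) and posterior mesoderm (157 and 2 cells) gates were filled in the knockout, and the cardiac progenitor gate (23 and 437 cells) in the control. Among the 10 genes furthest above the other states, the cardiac progenitor gate had 2 of its own markers in the control and the proepicardial gate 3 in each library, fewer than the other gates. The control proepicardial gate also had 3 mesenchymal markers there. Median mesenchymal marker levels of proepicardial-gated cells were 572 CPM in the knockout and 506 CPM in the control. Their proepicardial marker levels were 254 and 285 CPM. A sum over all cells therefore mixes levels per cell with the makeup of the library, which cannot be told apart in it.

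Zbtb16 itself had 0.994 CPM in the knockout library (95% Poisson interval 0.891 to 1.11, 341 UMIs), against 22.2 CPM in the control library (21.7 to 22.8, 6507 UMIs). Its log2 ratio was -3.54, so the labels and the targeted gene point the same way. The remaining knockout UMIs were unevenly spread: visceral endoderm-gated cells had 10.5 CPM in the knockout, against 35.8 CPM in the control. Endothelial-gated cells had 0.155 CPM in the knockout, from 3 UMIs, against 19.7 CPM in the control. Free RNA, read from barcodes with 10 to 100 UMIs, held 1.44 CPM of Zbtb16 in the knockout, from 6 UMIs, and 24.7 CPM in the control, from 132 UMIs. A free RNA level near that of the cells was not particular to Zbtb16. Zbtb8os had 62.7 CPM in control free RNA and 66.2 CPM in control cells. How much free RNA the gated cells carry was not tested.

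The summed level of all 41 members was 566 CPM in the knockout (563 to 568) and 534 CPM in the control (531 to 537). For the 39 genes of the protein family the sums were 500 CPM in the knockout and 464 CPM in the control, a difference of 36.2 CPM. The fall of Zbtb16 was 21.2 CPM. These sums carry no correction for transcript length or GC content, and a link between the difference and the fall was not tested. All 41 members had UMIs in both libraries, and 31 reached 5 CPM in at least 1 of them, the level used here for a measured gene.

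Of the 31 measured members, 5 lay 1.5-fold or more above the control in the knockout (log2 ratio of CPM plus a prior of 1), while 12.7% of the 10289 measured genes were. None was 1.5-fold lower, against 6.75% of measured genes. The median log2 ratio was 0.05 over the measured members and 0.02 over all measured genes. The members' ratios ran from -0.42 for Zbtb46 to 0.79 for Zbtb10. At 16.1% of the measured members, the share that was higher lies near the background.

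**Figure D1:**
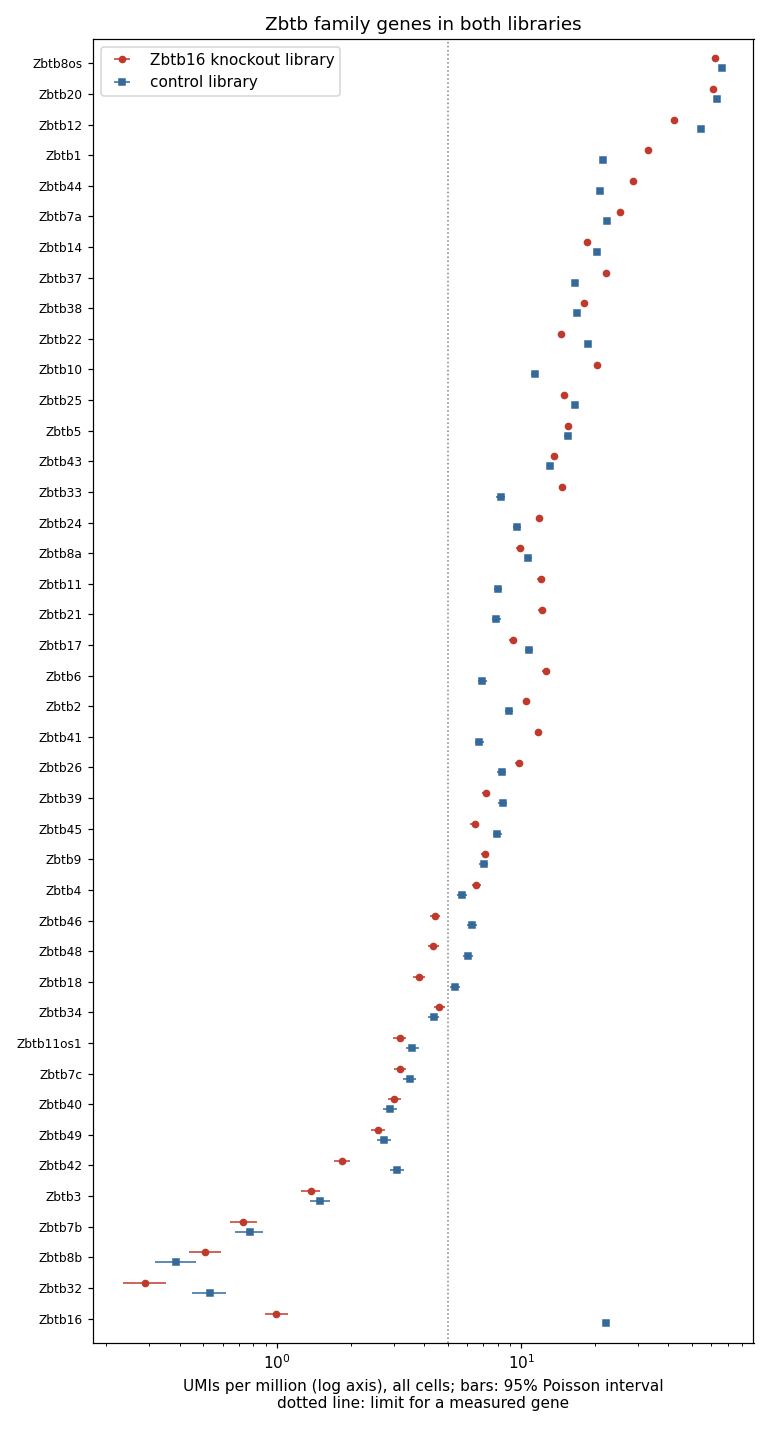
Levels of the 41 members and Zbtb16 over all cells of each library, in CPM on a log axis, with knockout as red circles, control as blue squares and bars for the 95% Poisson interval. Zbtb16, in the last row, is at 0.994 in the knockout and 22.2 in the control, while no measured member is 1.5-fold lower in the knockout.

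The 5 higher members were Zbtb10, Zbtb6, Zbtb33, Zbtb41 and Zbtb1. Zbtb10 (ENSMUSG00000069114), whose human protein represses genes of Sp transcription factors, had 20.3 CPM in the knockout and 11.3 CPM in the control. Its ratio of CPM was 1.79 (95% counting interval 1.72 to 1.87). Zbtb6 (ENSMUSG00000066798) had 12.6 CPM in the knockout and 6.93 CPM in the control, a log2 ratio of 0.77. It overlaps Zbtb26 on the same strand, and their reads may have been split or shared by the counting. Zbtb26 itself had 9.76 CPM in the knockout and 8.31 CPM in the control.

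Zbtb33 (ENSMUSG00000048047) encodes Kaiso, which binds methylated CpG sites and the catenin p120. It had 14.7 CPM in the knockout and 8.22 CPM in the control, a log2 ratio of 0.76, and overlaps Tmem255a on the opposite strand. Whether the counting used strand is not stated. Other members overlap genes too, among them Zbtb21 with C2cd2 and Zbtb22 with Tapbp on the same strand. Zbtb12 overlaps C2 and Zbtb37 overlaps Gas5 on the opposite strand. Zbtb41 (ENSMUSG00000033964) had 11.7 CPM in the knockout and 6.73 CPM in the control, a log2 ratio of 0.72. Zbtb1 (ENSMUSG00000033454), which lymphocyte development in mice requires, had 33.1 CPM in the knockout and 21.5 CPM in the control, a log2 ratio of 0.60. Together these 5 genes held 92.4 CPM in the knockout and 54.8 CPM in the control, a sum of genes chosen for being higher. Just under the limit were Zbtb21, with 12.1 CPM in the knockout and 7.89 CPM in the control, and Zbtb11, with 12.0 CPM in the knockout and 8.02 CPM in the control.

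Promoters are shown for the higher members that the RefSeq promoter table (GRCm38.p6) holds, so that their start regions can be set beside one another; Zbtb10 had no match, and no motif searched stood in all 4. Each is the 250 bases before the gene's start, read 5′ to 3′ on the gene's strand, and capitals mark CCGGAAG, a core of ETS factor sites, and GGGCGG, a core of Sp and Klf factor sites, on either strand. They lie at chr12:76370270-76370519 (Zbtb1, plus strand), chrX:38189543-38189792 (Zbtb33, plus strand), chr1:139422133-139422382 (Zbtb41, plus strand) and chr2:37430920-37431169 (Zbtb6, minus strand).
Zbtb1: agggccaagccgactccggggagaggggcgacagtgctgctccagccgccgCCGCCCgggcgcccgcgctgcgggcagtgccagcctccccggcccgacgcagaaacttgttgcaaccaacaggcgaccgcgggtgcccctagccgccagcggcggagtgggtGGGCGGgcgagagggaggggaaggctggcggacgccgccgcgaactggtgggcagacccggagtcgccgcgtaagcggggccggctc
Zbtb33: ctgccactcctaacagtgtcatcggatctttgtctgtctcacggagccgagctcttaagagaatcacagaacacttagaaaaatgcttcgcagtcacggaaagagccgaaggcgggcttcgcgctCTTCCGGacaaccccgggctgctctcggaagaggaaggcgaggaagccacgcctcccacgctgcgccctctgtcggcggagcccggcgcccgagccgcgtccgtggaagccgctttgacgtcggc
Zbtb41: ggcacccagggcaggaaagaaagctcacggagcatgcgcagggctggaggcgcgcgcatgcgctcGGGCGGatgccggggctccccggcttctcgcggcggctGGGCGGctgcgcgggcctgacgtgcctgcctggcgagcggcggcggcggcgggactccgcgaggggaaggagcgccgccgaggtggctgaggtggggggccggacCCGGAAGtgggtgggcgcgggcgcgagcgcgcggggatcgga
Zbtb6: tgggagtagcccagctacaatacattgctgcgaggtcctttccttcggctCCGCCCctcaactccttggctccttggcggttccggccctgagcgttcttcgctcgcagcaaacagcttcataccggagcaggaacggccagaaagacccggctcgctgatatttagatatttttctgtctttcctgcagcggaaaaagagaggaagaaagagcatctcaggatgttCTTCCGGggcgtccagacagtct
CCGGAAG stood in the promoters of Zbtb33, Zbtb41 and Zbtb6, in 18.0% of the 50 promoters of members and in 6.91% of all 32851 promoters. GGGCGG stood in those of Zbtb1, Zbtb41 and Zbtb6, in 60% of member promoters and in 32.7% of all promoters. Of 6 other motifs searched on both strands, GCGCATGC (NRF1) stood in 10% of member promoters, Zbtb41 among them, and in 2.26% of all. CCAAT (NF-Y, 30.0% of members and 33.8% of all), TATAAA (12.0% and 12.4%), TCCTGCNA (Kaiso, 8.0% and 4.03%), TGACGTCA (CREB, 2.0% and 1.55%) and AAGATGGC (YY1, 0.0% and 1.56%) stood in none of the 4. The promoters shown had 76.4% (Zbtb1), 62.4% (Zbtb33), 78.4% (Zbtb41) and 54.8% (Zbtb6) G and C, against a median of 52.4% over all promoters. The G and C content of the other member promoters was not measured, and its part in the motif shares was not tested.

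The ratios also followed transcript length and GC content. Over the 10286 measured genes with a length, Spearman's rho between transcript length and log2 ratio was 0.45, and over the 31 measured members it was 0.55. With GC percent, rho was -0.28 over measured genes and -0.60 over measured members. These are descriptions across genes, which share 2 libraries and are no replicates. Measured members had a median transcript of 4998 bases, against 3162.5 bases over measured genes, and a median GC content of 46.3%, against 49.8%. After trends on length and GC content were removed, 0 members were 1.5-fold higher (background 7.24%) and 3 were lower (background 7.30%), and the members' median log2 ratio was -0.15. The corrected log2 ratios of the higher members were 0.43 for Zbtb6, 0.41 for Zbtb33, 0.38 for Zbtb10, 0.19 for Zbtb41 and 0.07 for Zbtb1. The 3 lower members were Zbtb18 at -0.70, Zbtb46 at -0.70 and Zbtb20 at -0.63. Each had its highest control level in the cardiomyocyte gate, whose share of cells was 31.2% in the control but 0.53% in the knockout. Corrected within endothelial-gated cells, Zbtb18 was at 0.29 and Zbtb46 at 0.30, while Zbtb20 was at -0.59. In cardiomyocyte-gated cells the corrected log2 ratios were -1.10, -0.49 and -1.05, and in proepicardial-gated cells -0.07, -0.56 and -0.80. The part of library makeup in these 3 ratios was not tested. The part of length and base composition in the ratios was not tested beyond this correction.

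**Figure D2:**
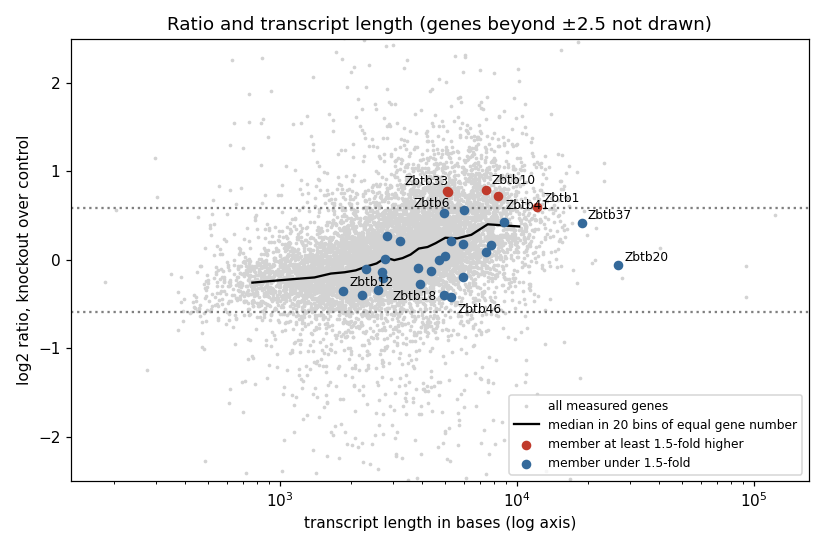
Log2 ratio of knockout over control against transcript length in bases (log axis) for measured genes in grey, with members in red (at least 1.5-fold higher) and blue, and the running median as a line; dotted lines mark 1.5-fold. The median of all genes climbs with length, and the higher members are 5077 bases (Zbtb6) to 12190 bases (Zbtb1) long.

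The members with the most UMIs stayed under 1.5-fold, apart from Zbtb1. Zbtb8os had 62.1 CPM in the knockout and 66.2 CPM in the control. Zbtb20, known in liver as a repressor of the alpha-fetoprotein gene, had 60.7 CPM in the knockout and 63.4 CPM in the control. Zbtb12 had 42.3 CPM in the knockout and 54.2 CPM in the control, a log2 ratio of -0.35. These 3 were lower in the knockout by less than 1.5-fold. Zbtb44 had 28.6 CPM in the knockout and 20.99 CPM in the control, a log2 ratio of 0.43. Zbtb37 had 22.3 CPM in the knockout and 16.5 CPM in the control, a log2 ratio of 0.41. Zbtb7a, the repressor LRF of fetal globin genes, had 25.4 CPM in the knockout and 22.3 CPM in the control. The GC-rich DNA binding repressor Zbtb14 had 18.6 CPM in the knockout and 20.4 CPM in the control.

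The lowest ratios belonged to genes near the limit of measurement. Zbtb46, a factor of classical dendritic cells and endothelium, had 4.43 CPM in the knockout and 6.29 CPM in the control, a log2 ratio of -0.42. Zbtb18, a repressor needed in the developing cortex, had 3.82 CPM in the knockout and 5.35 CPM in the control, a log2 ratio of -0.40. Both genes reached 5 CPM in the control only. The 10 members that were not measured lay between 0.289 and 4.62 CPM in the knockout and between 0.386 and 4.38 CPM in the control.

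Of the 5 gates with at least 50 cells in each library, Zbtb41 and Zbtb6 passed 1.5-fold upward in all 5. Zbtb10 and Zbtb33 were higher in 4, and in visceral endoderm-gated cells their log2 ratios were 0.50 and 0.42. Zbtb1 passed in cardiomyocyte- and visceral endoderm-gated cells. The gates share the same 2 libraries, and the share of all genes that pass in all 5 was not counted. Zbtb41 reached 5 CPM in the knockout only in endothelial- and visceral endoderm-gated cells, with 4.70 and 4.66 CPM in the control. In cardiomyocyte-gated cells Zbtb41 and Zbtb6 had 29 knockout UMIs each. With length and GC trends removed within each gate, the log2 ratios of Zbtb41 lay between 0.24 and 0.46. Those of Zbtb6 lay between 0.23 and 0.54, so that neither gene reached 1.5-fold. Counts of higher and lower members were 6 and 0 of 31 in endothelial-gated cells (background 11.0% higher and 5.47% lower), 5 and 0 of 29 in mesenchymal-gated cells (11.4% and 3.56%), and 5 and 2 of 31 in visceral endoderm-gated cells (13.2% and 6.60%). In proepicardial-gated cells they were 5 and 2 of 31 (14.1% and 7.05%), in cells of no gate 4 and 0 of 30 (12.1% and 6.27%), and in cardiomyocyte-gated cells 8 and 3 of 32 (15.5% and 11.4%). The lower ones were Zbtb12 and Zbtb7c in visceral endoderm-gated cells, Zbtb4 and Zbtb22 in proepicardial-gated cells, and Zbtb4, Zbtb17 and Zbtb18 in cardiomyocyte-gated cells. Of these, Zbtb4 and Zbtb18 reached 5 CPM in cardiomyocyte-gated cells of the control only. Zbtb4 had 3.57 CPM in the knockout and 6.09 CPM in the control, and Zbtb18 had 4.01 and 7.60 CPM. The cardiomyocyte calls rest on 8 knockout UMIs of Zbtb4, 15 of Zbtb17 and 9 of Zbtb18. The counting interval of the fold holds 1 for Zbtb4 (0.252 to 1.16) and Zbtb18 (0.240 to 1.01) there and for Zbtb4 in proepicardial-gated cells (0.322 to 1.003). After the correction within states, Zbtb17 in cardiomyocyte-gated cells had a log2 ratio of -0.51, Zbtb22 in proepicardial-gated cells -0.49 and Zbtb12 in visceral endoderm-gated cells -0.40, all short of 1.5-fold. Apart from the 5 named above, the higher ones were Zbtb21 (cardiomyocyte, mesenchymal and proepicardial gates), Zbtb44 (cardiomyocyte and endothelial gates), Zbtb8a (cardiomyocyte gate), Zbtb18 (endothelial gate), and Zbtb7b and Zbtb11 (visceral endoderm gate). With length and GC trends removed within each state, 3 members were higher in cardiomyocyte-gated cells (Zbtb1, Zbtb10 and Zbtb8a, background 11.3%), 1 in endothelial-gated cells (Zbtb33, background 5.50%) and 1 in visceral endoderm-gated cells (Zbtb7b, background 6.52%). None was higher in mesenchymal-gated cells (4.60%), proepicardial-gated cells (7.55%) or cells in no gate (6.28%). Zbtb7b reached 5 CPM in visceral endoderm-gated cells of the knockout only, at 5.31 CPM (59 UMIs). Control cells of that gate had 2.74 CPM (20 UMIs). Zbtb18, higher in endothelial-gated cells before the correction, likewise reached 5 CPM there in the knockout only. Members lower after this correction numbered 5 in cardiomyocyte-gated cells (background 11.4%), 2 in endothelial-gated cells (6.25%), 1 in visceral endoderm-gated cells (8.14%) and 2 in proepicardial-gated cells (7.63%, Zbtb4 and Zbtb20), and 0 in mesenchymal-gated cells (4.06%) and cells in no gate (6.54%).

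Zbtb41 had its widest ratio in proepicardial-gated cells, with 13.6 CPM in the knockout and 5.83 CPM in the control. In mesenchymal-gated cells it had 12.4 CPM in the knockout (1530 UMIs) and 6.45 CPM in the control (242 UMIs). Zbtb6 in those cells had 13.9 CPM in the knockout and 6.88 CPM in the control. Zbtb10 had 22.2 CPM in knockout endothelial-gated cells and 13.8 CPM in control ones. Zbtb33 there had 11.6 CPM in the knockout and 5.43 CPM in the control. The widest ratio of the higher members was that of Zbtb1 in cardiomyocyte-gated cells, with 49.9 CPM in the knockout (41.1 to 60.1, 112 UMIs) and 20.2 CPM in the control (19.2 to 21.2). The knockout cells of that gate were few, and their median marker level was 3173 CPM, against 5069 CPM in control cells of the gate. The limit of the gate was 2000 CPM, and 33 cells of the whole knockout library lay within 20% of it, above or below. Cardiomyocyte markers also differed outside the gate: their median in mesenchymal-gated cells was 117 CPM in the knockout and 374 CPM in the control. In proepicardial-gated cells it was 193 CPM in the knockout and 644 CPM in the control. Cells of no gate had 151 CPM in the knockout and 539 CPM in the control. The part of these markers in the ratios was not tested.

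**Figure D3:**
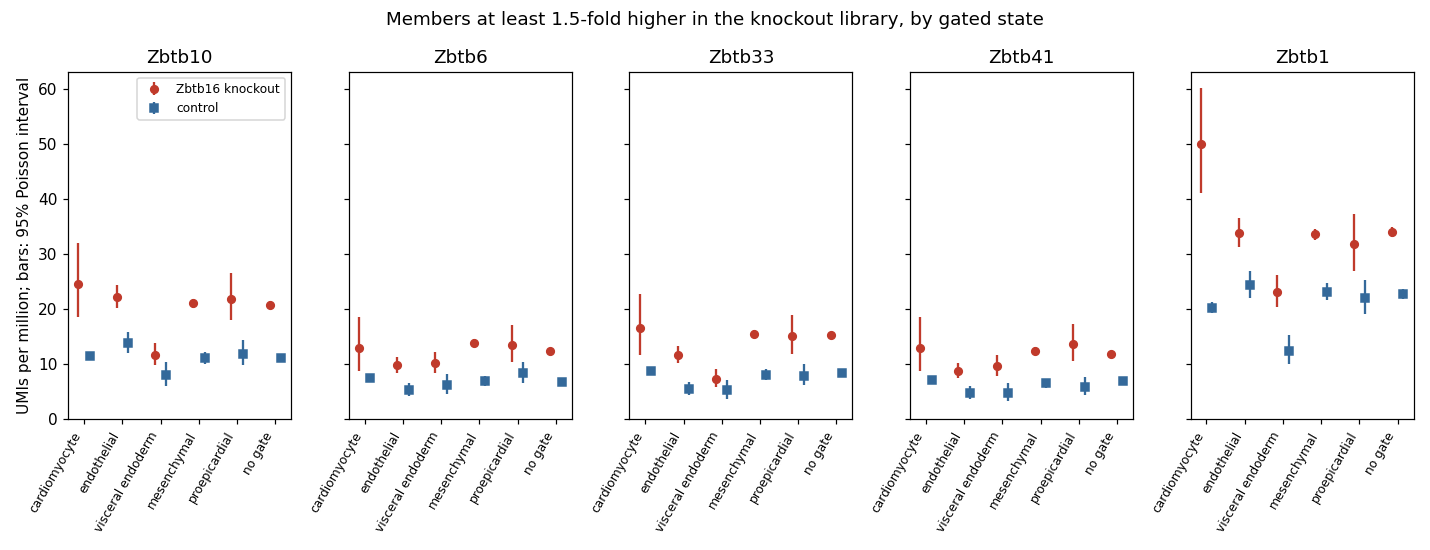
Levels of the 5 higher members in the gated states that both libraries fill and in cells of no gate, in CPM, with knockout as red circles, control as blue squares and bars for the 95% Poisson interval. Every knockout point is above its control point; Zbtb1 in cardiomyocyte-gated cells is at 49.9 in the knockout and 20.2 in the control.

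Over the states of a single library, the family varied about as much as other genes or less. In the knockout, 17 of the 34 members that reached 5 CPM in a state differed at least 2-fold between their highest and lowest of 7 states, against 57.4% of all genes. In the control it was 8 of 32 members over 6 states, against 39.8% of all genes. The median ratio of highest to lowest state was 1.997 for members and 2.22 for all genes in the knockout, and 1.68 and 1.74 in the control.

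Zbtb20 was low in endothelial-gated cells of both libraries, with 22.4 CPM in the knockout and 22.1 CPM in the control. Its level was highest in mesenchymal-gated cells of the knockout, at 72.8 CPM, and in cardiomyocyte-gated cells of the control, at 90.1 CPM. Cardiomyocyte-gated cells of the knockout had 64.2 CPM. Visceral endoderm-gated cells lay low in both, with 33.1 CPM in the knockout and 31.7 CPM in the control. The lowest knockout state was the pluripotent gate, at 17.7 CPM. Zbtb46 was highest in endothelial-gated cells of the knockout, at 10.5 CPM, against 6.75 CPM in those of the control, where cardiomyocyte-gated cells led with 8.64 CPM. In visceral endoderm-gated cells it had 1.89 CPM in the knockout and 2.61 CPM in the control. Its lowest knockout state was the pluripotent gate, at 1.53 CPM. Zbtb11 was highest in endothelial-gated cells of both libraries, with 22.5 CPM in the knockout and 16.9 CPM in the control.

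Zbtb7b, which as ThPOK directs T helper cells, had 5.31 CPM in visceral endoderm-gated cells of the knockout and 2.74 CPM in those of the control. Pluripotent-gated knockout cells had 4.48 CPM, and no other state passed 1.14 CPM in either library. Its relative Zbtb7c was also highest in visceral endoderm-gated cells, with 5.67 CPM in the knockout and 9.74 CPM in the control. Endothelial-gated cells had 0.207 CPM of Zbtb7c in the knockout and 0.265 CPM in the control, from 4 UMIs each. Zbtb44 was lowest in endothelial-gated cells of both libraries, with 16.9 CPM in the knockout and 10.7 CPM in the control. In pluripotent-gated knockout cells Zbtb44 reached 43.1 CPM.

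**Figure D4:**
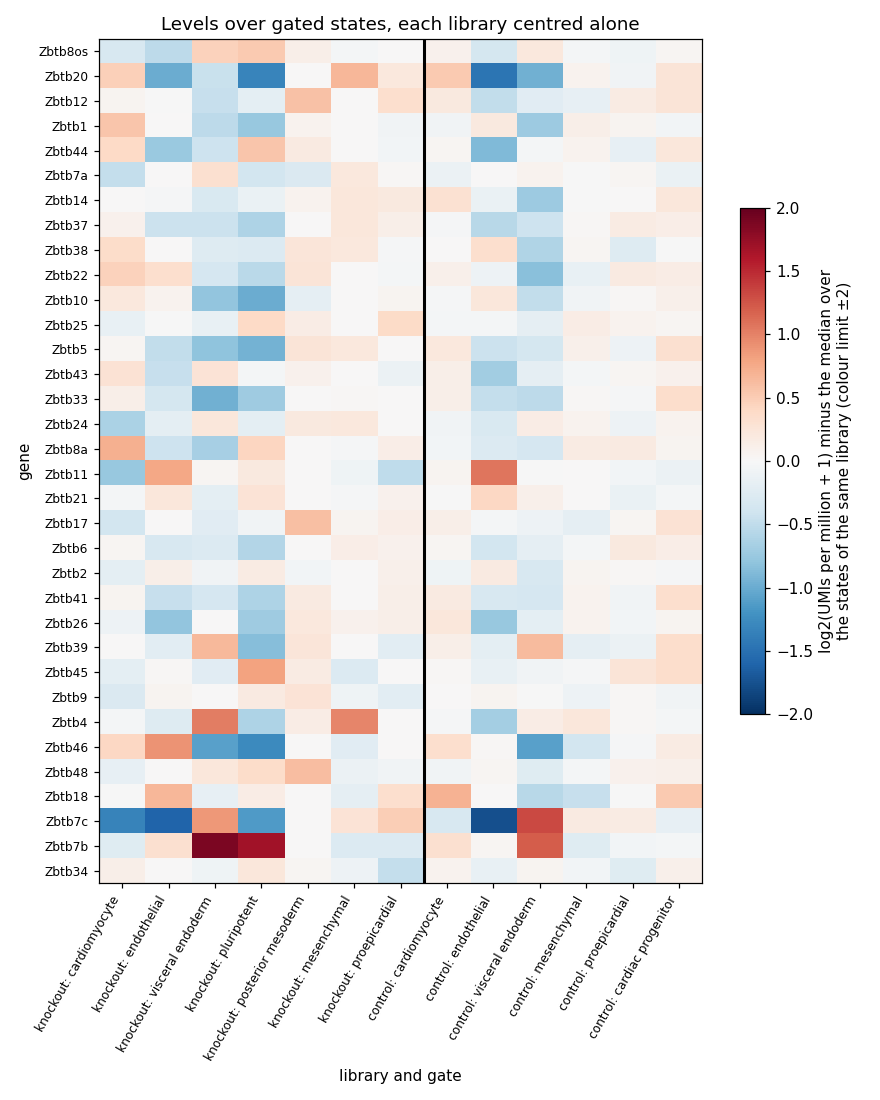
Levels over gated states for members that reached 5 CPM in a state, as log2 of CPM plus 1 minus the median over the states of the same library, with knockout states left of the line and control states right of it. Red is above and blue below that median. Zbtb7c and Zbtb7b stand out in the visceral endoderm columns, and Zbtb20 in the endothelial ones and in the pluripotent column of the knockout.

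Likeness to Zbtb16 was read as Spearman's rho over the 6 control states, a description over few points that share a library. Zbtb7c and Zbtb4 came first at 0.94 each, followed by Zbtb24 at 0.60. The order depends on the measure: Pearson's r of log2 levels was 0.88 for Zbtb7c, 0.73 for Zbtb24 and 0.60 for Zbtb4, with Zbtb8os (0.73) and Zbtb39 (0.70) also above Zbtb4. Zbtb4, a reader of methylated DNA related to Kaiso, had 7.49 CPM in mesenchymal-gated and 6.996 CPM in visceral endoderm-gated control cells, and 3.51 CPM in endothelial-gated ones. Zbtb24, mutated in a human immunodeficiency with unstable centromeres, ran between 7.88 and 11.2 CPM over the same states. Over all cells Zbtb4 had 6.53 CPM in the knockout and 5.72 CPM in the control, and Zbtb24 had 11.8 CPM in the knockout and 9.62 CPM in the control.

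Of 8 BTB zinc finger genes with other names, 6 were measured, 1 passed 1.5-fold upward in the knockout and 0 downward. Over all measured genes the shares were 12.7% upward and 6.75% downward. The median log2 ratio of the 6 was 0.08, or -0.10 after length and GC correction. The higher one was Gzf1, with 20.7 CPM in the knockout and 12.4 CPM in the control, and its log2 ratio of 0.70 came to 0.48 after the correction, under the limit. Hic2 had 35.2 CPM in the knockout and 26.4 CPM in the control, and Mynn 19.7 CPM in the knockout and 17.5 CPM in the control. Patz1 had 31.5 CPM in the knockout and 40.3 CPM in the control, and Bcl6b had 5.17 CPM in the knockout and 5.22 CPM in the control. Of 16 partners reported for the human or mouse Zbtb16 protein, 15 were measured. Their median log2 ratio was 0.04, or -0.05 after the correction. Of the 15, 1 was higher and 0 were lower, against 12.7% and 6.75% of all measured genes. That one was the histone deacetylase gene Hdac4, with 116 CPM in the knockout and 58.5 CPM in the control, and a log2 ratio of 0.62 after length and GC correction. Cul3, which encodes a ubiquitin ligase scaffold, had 187 CPM in the knockout and 131 CPM in the control. The lowest ratios were -0.38 for Gata2, -0.21 for Hdac1 and -0.18 for Hdac3.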

How the data were processed

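Single-cell RNA was counted in 1 knockout and 1 control library, prepared per the labels' protocols with a droplet kit of MGI. The values deposited are raw counts of UMIs for every gene in every barcode, written by Cell Ranger 4 per the file headers. Cell Ranger, R 4.1.1 and the builds GRCm39 and mm39 are named per the submitters' processing notes; alignment settings and strand are not given in the sources used here. The libraries held 357324373 UMIs over 2775689 barcodes in the knockout and 308465930 over 2934307 in the control, and were not filtered.

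From these counts, barcodes with at least 15000 UMIs were kept, and those above 10% mitochondrial UMIs (50 knockout and 24 control) were left out. No doublets were removed; cells passing more than 1 gate (72 and 54) were set aside. Gates summed the CPM of marker lists and asked for 3 markers with a UMI; their limits were chosen after the data were seen. Proepicardial and cardiac progenitor gates were read on cells that no other gate took. Sums per library and state became CPM with exact Poisson intervals (scipy 1.17.1); ratios used a prior of 1 CPM, and intervals of ratios are exact Clopper-Pearson intervals. Measured means 5 CPM or more in either library. No test was run, since each group has 1 library.

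Transcript length and GC content came from GENCODE M21 (GRCm38), matched by identifier for 10286 of 10289 measured genes, and were corrected by lowess trends with a fraction of 0.3 (statsmodels 0.14.6). Promoters came from RefSeq on GRCm38.p6, matched by symbol for 37 of 41 members. Named members are those past 1.5-fold in all cells or in every state compared, the 8 with the highest mean CPM, the 4 with the widest range over states in each library, and the 3 most like Zbtb16; from the related lists, the 3 largest ratios in each direction, of which 1 is not reported here. Others named were chosen after their values were seen. Ranking by protein identity to Zbtb16 was planned and is not analysed here. The members and lists were chosen with earlier results of these data known. Alternatives covered cell limits, scaling by TMM (edgeR 4.0.16), priors, filters, the correction and gates. The steps were tested on simulated data.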

Additional observations from a re-analysis of the deposited data

Results flagged for a closer look

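Zbtb18 passed 1.5-fold in opposite directions in 2 states, while its log2 ratio was above 0 in 4 of the 5 gates compared. Proepicardial-gated cells had a log2 ratio of 0.28. It was 0.32 in visceral endoderm-gated and 0.22 in mesenchymal-gated cells, where Zbtb18 was below 5 CPM in both libraries. In endothelial-gated cells it had 6.98 CPM in the knockout (135 UMIs) and 4.30 CPM in the control (65 UMIs), a log2 ratio of 0.59. In cardiomyocyte-gated cells it had 4.01 CPM in the knockout, from 9 UMIs, and 7.60 CPM in the control, a log2 ratio of -0.78. The counting interval of the cardiomyocyte ratio, 0.240 to 1.01, holds equality. With length and GC trends removed within each state, the log2 ratios were 0.29 in endothelial-gated cells, short of 1.5-fold, and -1.10 in cardiomyocyte-gated cells. Without that correction the log2 ratios differ by 1.37, and the difference was not tested.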

How the results depend on the processing

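Over all cells, the count of higher members stayed between 4 and 6 under other UMI and mitochondrial limits, TMM scaling, equal weight per cell, a prior of 0.1 CPM, other filters, and without the cells richest in UMIs, shared barcodes or cardiomyocyte-gated cells. It came to 1 with a prior of 5 CPM (Zbtb10), to 0 at a 2-fold threshold and to 0 with the length and GC correction, where 3 members were lower and the median log2 ratio was -0.15. Without cardiomyocyte-gated cells that median was 0.14. The causes were not tested. The correction within states, added after the data were seen like the 2-fold threshold and the shared barcodes, gave 3 higher and 5 lower (Zbtb4, Zbtb8os, Zbtb14, Zbtb18 and Zbtb20) in cardiomyocyte-gated cells, 1 and 2 (Zbtb20 and Zbtb38) in endothelial-gated cells, 1 and 1 (Zbtb7c) in visceral endoderm-gated cells, 0 and 2 (Zbtb4 and Zbtb20) in proepicardial-gated cells, and 0 and 0 in mesenchymal-gated cells and cells in no gate. Over all genes the corrected shares in cardiomyocyte-gated cells were 11.3% higher and 11.4% lower, and those of the other sets lay between 4.06% and 8.14%. In visceral endoderm-gated cells 1 member was lower with doubled gate limits and 0 with cells of more than 1 gate kept. Higher limits left too few cardiomyocyte- and proepicardial-gated cells for a value. Of the values that answer a comparison, 58 moved little and 17 moved. No paired analysis was possible because a lone library stands in each arm. Depth limits members under 5 CPM and the 50 knockout cardiomyocyte-gated cells most.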

Other observations

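Zbtb32, a member that was not measured over all cells and was chosen here after its values were seen, had 4.91 CPM in pluripotent-gated knockout cells, from 45 UMIs. The other knockout states did not pass 0.353 CPM. The control library had too few pluripotent-gated cells for a value. Zbtb42, also not measured, had 1.85 CPM in the knockout and 3.10 CPM in the control over all cells. Its log2 ratio with the prior of 1 CPM was -0.53, short of 1.5-fold, and it was likewise chosen after its values were seen.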
